A study of Mus musculus with 22 samples.

Results

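The Ikaros family of zinc finger transcription factors has 5 members in the mouse: Ikzf1 (Ikaros), Ikzf2 (Helios), Ikzf3 (Aiolos), Ikzf4 (Eos) and Ikzf5 (Pegasus). They were taken by symbol from a table of read counts for 55011 genes. All 5 were found, and all 5 were among the 15462 genes with enough counts to be tested.

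Ikaros family proteins bind DNA through zinc fingers near the amino terminus and pair with themselves or with each other through a second set of fingers at the carboxyl terminus. Several members repress genes by recruiting the NuRD complex, which couples a nucleosome remodeller to histone deacetylases, and other corepressors. Ikaros is needed for lymphocyte development, and Aiolos is expressed in B cells and in activated T cells. Helios and Eos are known for their abundance in regulatory T cells (Treg), the cells that restrain immune responses under the control of the transcription factor Foxp3, and Eos is a partner of Foxp3 in gene repression. Pegasus is the most divergent member, and less is known of it.

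The libraries came from the lymph nodes of scurfy mice, which carry a Foxp3 mutation, lack functional Treg and develop fatal autoimmunity. Every recipient was a scurfy mouse given cyclophosphamide at 50 mg/kg when 10 days old, then CD4+ T cells into the peritoneum on day 14, with human IL-2 at 1000 IU/g daily for 5 days and weekly after that. In the FOXP3 group, the transferred cells were scurfy CD4+ T cells that had been given a vector with human FOXP3 and were sorted by LNGFR, the surface tag that it also carries. In the WT Treg group, they were CD4+CD25+ cells that carried the CD45.1 marker and that the titles call WT Treg. In the LNGFR group, they were scurfy CD4+ T cells that had been given an empty vector with the same tag. On day 50, CD4+ cells with the LNGFR or CD45.1 marker were double-sorted, 1000 to a library. All 22 libraries carry the strain label C57BL/6 and the genotype label Scurfy - FOXP3 KO, those of the WT Treg included. There were 5 sample codes for FOXP3 (F1, F2, F5, N2 and N3), 3 for WT Treg (E2, G4 and L1) and 3 for LNGFR (G1, G2 and G3), each with 2 libraries, whose counts were added up. The labels do not say that a code is one animal, so the p-values measure the spread between codes, which may be technical in part. The promoter of the vector is not given in the sources used here.

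Total counts ran between 1154626 and 10376164 per code. Code E2 was the shallowest, and 52.0% of its counts lay on 11 gene models of the Gm10800 repeat family, which took 2.38% to 6.30% elsewhere. Levels below are in CPM, which sets a gene's counts against the total of its code, scaled between codes by the trimmed mean of M-values (TMM). Summed over 8 T cell markers, the level was 3652 to 5855 CPM in FOXP3, 2655 to 6281 CPM in WT Treg and 5309 to 7036 CPM in LNGFR, and none of the 8 was at 0 in any code. Summed over 10 B cell markers, it was 141 to 5262 CPM in FOXP3, where N3 was the highest, 137 to 234 CPM in WT Treg and 536 to 1590 CPM in LNGFR, where G1 was the highest. Plasma cell markers summed to 203 to 586 CPM in FOXP3, 115 to 315 CPM in WT Treg and 475 to 665 CPM in LNGFR, with Tnfrsf17 at 0 in 8 of 11 codes. Markers of CD8 T and NK cells summed to 5.39 to 10.6 CPM in FOXP3, 26.6 to 50.0 CPM in WT Treg and 18.1 to 29.3 CPM in LNGFR. Markers of myeloid and dendritic cells summed to 5.61 to 14.2 CPM in FOXP3, 19.9 to 64.5 CPM in WT Treg and 2.28 to 23.2 CPM in LNGFR, with Cd14 at 0 in 7 of 11 codes. The part of these cells in the levels below was not tested. Foxp3 itself, read from the mouse gene, had 217.7, 313.1, 217.1, 231.8 and 162.3 CPM in FOXP3 codes F1, F2, F5, N2 and N3, against 704.2, 1581 and 1630 CPM in WT Treg codes E2, G4 and L1 and 42.7, 72.7 and 143.0 CPM in LNGFR codes G1, G2 and G3. The scurfy gene still makes transcript, and whether reads of the human vector were counted on the mouse gene was not tested.

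The members resemble each other in their DNA-binding fingers, which bears on whether short reads can tell them apart. The second zinc finger is shown for this reason, and runs over 63 coding bases in each mouse gene. Capitals mark the codons of the cysteines and histidines that hold the zinc ion, and the sequences are those of the GENCODE M21 transcripts (GRCm38), written 5′ to 3′ on the coding strand.
Ikzf1: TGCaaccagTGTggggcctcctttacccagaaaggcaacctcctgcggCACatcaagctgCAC
Ikzf2: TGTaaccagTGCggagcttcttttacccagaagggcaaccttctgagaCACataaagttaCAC
Ikzf3: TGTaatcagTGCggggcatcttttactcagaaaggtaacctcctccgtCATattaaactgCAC
Ikzf4: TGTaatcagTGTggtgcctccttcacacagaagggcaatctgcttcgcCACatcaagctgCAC
Ikzf5: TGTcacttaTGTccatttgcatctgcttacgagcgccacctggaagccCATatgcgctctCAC

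Over this finger, Ikzf1 to Ikzf4 were 76.2% to 84.1% identical to each other, and Ikzf5 was 41.3% to 47.6% identical to the other four. Fingers were paired by their order in each gene. Whether the second finger of Ikzf5 is the counterpart of the second in the others was not tested. The longest run of identical coding bases between any pair of members was 26, between Ikzf1 and Ikzf3, shorter than the reads of 38 bases. No window of 38 bases in the annotated transcripts of one member occurred in another. Windows shared with any other gene made up 0.925% of those of Ikzf2 and 0.876% of those of Ikzf4, and there were 0 in Ikzf1 and in Ikzf3. The exception was Ikzf5, in which 82.2% of windows were shared, 4581 of 4761 with Pstk, a kinase gene on the opposite strand. The strand setting of the counting is not given in the sources used here, so the counts of Ikzf5 are uncertain.

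Helios and Eos were the members with the smallest p-values in each comparison. Both were higher in WT Treg than in LNGFR codes, by about the same fold, and FOXP3 codes lay between. Helios is encoded on GRCm38 chromosome 1 from 69531214 to 69687245, on the minus strand. Ikzf2 had 306.1, 455.2, 315.3, 283.0 and 200.4 CPM in FOXP3 codes F1, F2, F5, N2 and N3, against 377.8, 763.3 and 674.7 CPM in WT Treg codes E2, G4 and L1 and 74.6, 115.6 and 147.1 CPM in LNGFR codes G1, G2 and G3. Every FOXP3 code and every WT Treg code lay above every LNGFR code. FOXP3 code F2 lay above WT Treg code E2, so those groups overlapped. The averages were 312 ± 92.0 CPM in FOXP3 (SD, n = 5), 605 ± 202 CPM in WT Treg (SD, n = 3) and 112 ± 36.3 CPM in LNGFR (SD, n = 3).

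Eos is encoded on GRCm38 chromosome 10 from 128630843 to 128645991, on the minus strand. Ikzf4 had 93.5, 163.4, 108.0, 89.5 and 72.3 CPM in FOXP3 codes F1, F2, F5, N2 and N3, against 131.6, 260.2 and 231.1 CPM in WT Treg codes E2, G4 and L1 and 39.3, 48.0 and 50.6 CPM in LNGFR codes G1, G2 and G3. The pattern was that of Helios: the LNGFR codes were the lowest, and F2 was the one FOXP3 code above WT Treg code E2. The averages were 105 ± 34.9 CPM in FOXP3 (SD, n = 5), 208 ± 67.4 CPM in WT Treg (SD, n = 3) and 46.0 ± 5.89 CPM in LNGFR (SD, n = 3).

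**Figure D1:**
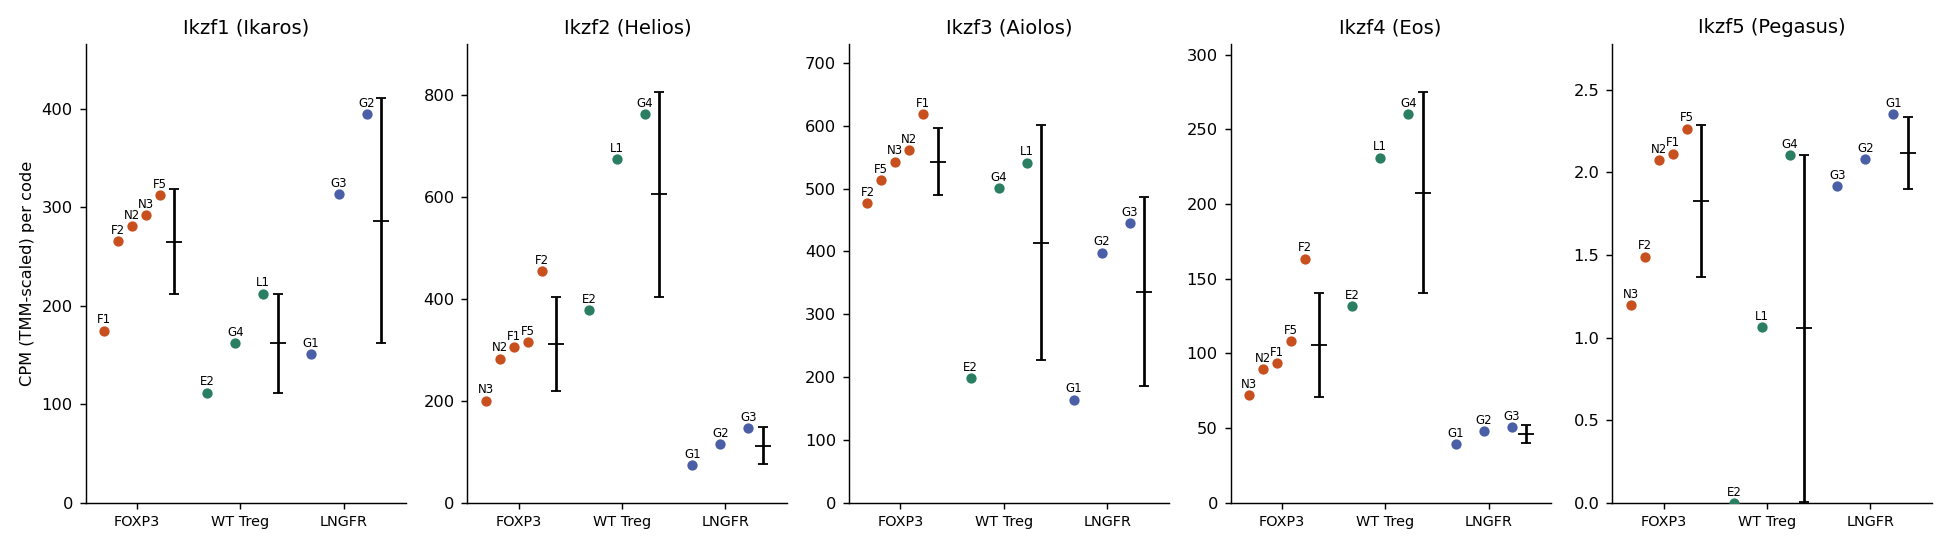
Level of each Ikaros family gene in CPM (linear axes that start at 0, a scale for each gene), by code in the FOXP3, WT Treg and LNGFR groups. Points are codes, and the bars beside them give the mean and SD over 5, 3 and 3 codes. All Ikzf2 and Ikzf4 points of FOXP3 and WT Treg lie above the LNGFR points, while those of Ikzf1 overlap between all groups.

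The comparison of WT Treg with LNGFR asks how transferred Treg differed from scurfy T cells with an empty vector after the same weeks in scurfy hosts. Ikzf2 rose 5.38-fold, a log2 fold change of 2.43 ± 0.41 (SE, 95% interval 1.54 to 3.32, adjusted p by edgeR = 0.0106). Ikzf4 rose 4.53-fold, a log2 fold change of 2.18 ± 0.37 (SE, 95% interval 1.39 to 2.97, edgeR adjusted p = 0.0104). These 2 of the 5 members rose and 0 fell, against 0.627% of all tested genes that rose and 0.673% that fell. The same 2 were the members whose WT Treg codes all lay above the LNGFR codes, which 7.8% of all tested genes also did. Donor mice, vector and sorting marker differed between these groups as well, and cannot be told apart from the cell type. Ikzf2 also lies on the same chromosome as Ptprc, which encodes CD45, 68.4 Mb away.

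Both calls rested on few codes. They held without WT Treg code E2 and without LNGFR code G1, and were lost without G2 (Ikzf2 adjusted p = 0.165, Ikzf4 0.151), G3 (0.0615 and 0.0871), WT Treg code G4 (0.0919 and 0.092) or L1 (0.121 for both). The fold changes themselves stayed between 2.14 and 2.699 for Ikzf2 and between 1.92 and 2.43 for Ikzf4 on the log2 scale when a code was left out. As in any bulk library, fewer cells that express a gene and less of its RNA in each cell cannot be told apart.

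The comparison of FOXP3 with LNGFR asks what the FOXP3 vector changed in scurfy T cells. No member passed the edgeR test, in which 0.543% of all genes were called, and 2 of the 5 had an unadjusted p below 0.05, as did 10.3% of all tested genes. The log2 fold change of Ikzf2 was 1.47 ± 0.37 (SE, 95% interval 0.67 to 2.27, edgeR adjusted p = 0.109), and that of Ikzf4 was 1.19 ± 0.33 (SE, 95% interval 0.48 to 1.90, edgeR adjusted p = 0.156). Ikzf2, Ikzf3 and Ikzf4 were higher in all 5 FOXP3 codes than in all 3 LNGFR codes, 3 of 5 members against 4.35% of all tested genes. Whether Helios and Eos were called depended on the method. DESeq2, limma with quality weights and a limma fit of all 22 libraries with the code as a random effect each called both higher, with adjusted p-values between 0.000431 and 0.00783, and edgeR itself called both when E2, G1 and N3 were left out (0.000906 for Ikzf2 and 0.00625 for Ikzf4). E2, G1 and N3 were the lowest codes of their groups for both genes. Without them, the SE was 0.19 in place of 0.37 for Ikzf2 and 0.225 in place of 0.33 for Ikzf4. Of all genes tested in each fit, DESeq2 called 0.766%, limma with quality weights 6.68%, the fit of 22 libraries 3.79%, and edgeR with those codes left out 10.7%. The DESeq2 share is 357 of the 46611 genes with a p-value, without edgeR's filter on low counts. DESeq2's own filter on mean counts can leave some of these without an adjusted p. The share of limma with quality weights is 1033 of 15462 filtered genes, so these shares are not alike. Without both libraries of E2 and the second of G1, the 3 weakest, edgeR called Ikzf2 (adjusted p = 0.0364) among 1.63% of all genes. Of the 8 fits that each left out 1 code, edgeR called Ikzf2 in 1, without N3 (adjusted p = 0.05 after rounding, with 1.83% of all genes called), and Ikzf4 in 0. All FOXP3 codes start with F or N and all LNGFR codes with G, so an effect of the vector and one of whatever those letters mark cannot be told apart.

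**Figure D2:**
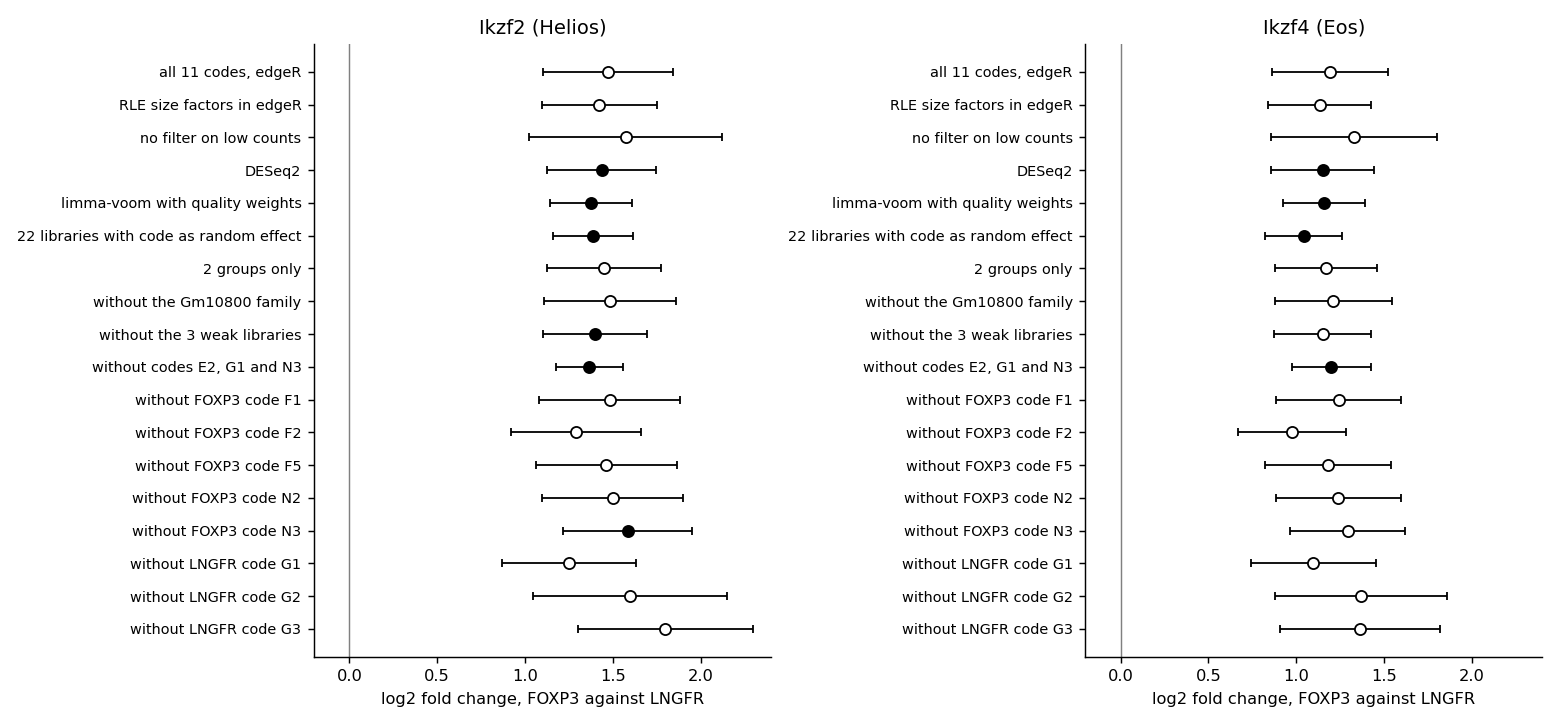
Log2 fold change of FOXP3 against LNGFR for Ikzf2 and Ikzf4 under each setting, with bars of 1 SE. Filled points passed an adjusted p of 0.05. The estimates stay between 1.25 and 1.80 for Ikzf2 and between 0.97 and 1.37 for Ikzf4.

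The comparison of FOXP3 with WT Treg asks how far the cells with the FOXP3 vector stood from the WT Treg. These groups also differed in donor mice, cells transferred, vector, sorting marker and the letters of their codes. Effects of these cannot be told apart. No member passed the edgeR test, against 0.259% of all tested genes, and 2 of the 5 had an unadjusted p below 0.05, as did 16.5% of all tested genes. The log2 fold change was -0.96 ± 0.34 for Ikzf2 (SE, 95% interval -1.70 to -0.22, edgeR adjusted p = 0.169) and -0.99 ± 0.31 for Ikzf4 (SE, 95% interval -1.65 to -0.32, edgeR adjusted p = 0.123). None of the 5 members separated these groups without overlap, while 12.4% of all tested genes did. DESeq2, limma with quality weights, the fit of 22 libraries, and edgeR with E2, G1 and N3 left out called both lower, with adjusted p-values between 0.00331 and 0.0344. These 4 fits called 6.91%, 6.78%, 3.11% and 7.42% of all genes in that order. The codes left out in the last were the lowest of their groups for both genes. No edgeR fit that left out a single code called either. This comparison and that of WT Treg with LNGFR share the WT Treg codes, and those against LNGFR share the LNGFR codes, so the 3 are not independent.

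**Figure D3:**
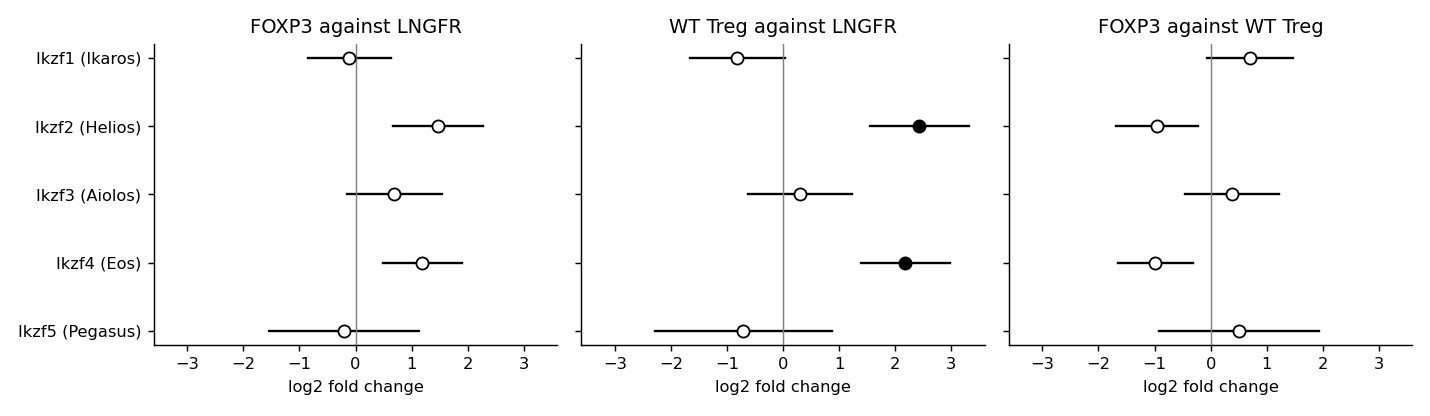
Log2 fold change of each member in the 3 comparisons, FOXP3 against LNGFR, WT Treg against LNGFR and FOXP3 against WT Treg, with 95% intervals. Filled points, Ikzf2 and Ikzf4 in WT Treg against LNGFR, passed an edgeR adjusted p of 0.05.

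From the highest code to the lowest, both Helios and Eos ran F2, F5, F1, N2 and N3 in FOXP3, G4, L1 and E2 in WT Treg, and G3, G2 and G1 in LNGFR. The orders in WT Treg and LNGFR were shared with other genes: that in LNGFR was also the order of Ikzf3, Foxp3 and Lrrc32, and that in WT Treg the order of Lrrc32. E2 was the lowest WT Treg code and G1 the lowest LNGFR code for all of these genes and for Ikzf1. The ratio of Ikzf2 to Ikzf4 CPM was 2.77 to 3.28 in FOXP3, 2.87 to 2.93 in WT Treg and 1.90 to 2.91 in LNGFR. The lowest ratio was that of G1, the shallowest LNGFR code. Between the 2 libraries of a code, the higher CPM exceeded the lower by a median of 1.10 times for Ikzf2 and 1.21 times for Ikzf4 over the 11 codes.

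Across the 11 codes, Pearson's r of log2 CPM between Ikzf2 and Ikzf4 was 0.985. The groups lie apart along both genes, and so the coefficient describes the differences between groups as much as those within them. Among 12255 tested genes that could be ranked, the one most like Ikzf2 was Lrrc32 (r = 0.989), which encodes GARP, the anchor of latent TGF-beta on Treg. It was followed by Ikzf4, by Slc26a2, a sulfate transporter (r = 0.957), and by Tlcd5 (0.950) and Agfg1 (0.949). The genes most like Ikzf4 were Ikzf2, Lrrc32 (r = 0.983), Grb7, an adaptor of receptor tyrosine kinases (0.961), Slc26a2 (0.955) and Foxp3 (0.948). The remaining pairs of members were less alike, from -0.33 for Ikzf1 and Ikzf4 to 0.55 for Ikzf1 and Ikzf3.

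Lrrc32 averaged 122 ± 52.4 CPM in FOXP3, 346 ± 129 CPM in WT Treg and 31.6 ± 13.4 CPM in LNGFR. Against LNGFR, its log2 fold change was 1.94 ± 0.44 in FOXP3 (edgeR adjusted p = 0.0784) and 3.45 ± 0.50 in WT Treg (adjusted p = 0.0041). Ikzf2 CPM divided by Foxp3 CPM was 1.22 to 1.45 in FOXP3, 0.414 to 0.536 in WT Treg and 1.03 to 1.75 in LNGFR, so the WT Treg codes had fewer Helios counts for each Foxp3 count than all other codes. For Ikzf4 the ratio was 0.386 to 0.522 in FOXP3, 0.142 to 0.187 in WT Treg and 0.354 to 0.921 in LNGFR.

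The annotation places 3 further transcripts within or across Ikzf2. Gm28112, in an intron on the same strand, averaged 114 ± 42.2 CPM in FOXP3, 232 ± 92.8 CPM in WT Treg and 65.1 ± 30.4 CPM in LNGFR, and passed no test (edgeR adjusted p = 0.0704 in WT Treg against LNGFR). For each of its counts, not corrected for length, Ikzf2 had 2.47 to 3.28 in FOXP3, 2.37 to 2.84 in WT Treg and 0.763, 2.46 and 3.06 in LNGFR, so that G1 again stood apart. Gm29112, in another intron, averaged 5.47 ± 3.13 CPM in FOXP3, 15.5 ± 3.76 CPM in WT Treg and 1.49 ± 1.44 CPM in LNGFR, and passed no test either (edgeR adjusted p = 0.0601 in WT Treg against LNGFR). Gm29114, which runs across the end of Ikzf2 on the opposite strand, averaged 4.63 ± 1.57 CPM in FOXP3, 14.2 ± 3.26 CPM in WT Treg and 1.62 ± 0.713 CPM in LNGFR. It rose in WT Treg against LNGFR by 3.06 ± 0.51 on the log2 scale (edgeR adjusted p = 0.0101). Gm29114 and Ikzf2 share 109 windows of 38 bases, and without a known strand setting reads from the shared stretch cannot be told apart. Grb7, 9529 bases from Ikzf3 and not from Ikzf4, rose in the same comparison, at 18.5 ± 5.80 CPM in WT Treg against 3.92 ± 0.705 CPM in LNGFR (log2 fold change 2.30 ± 0.40, edgeR adjusted p = 0.0127).

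Ikaros is encoded on GRCm38 chromosome 11 from 11685003 to 11772926, on the plus strand. Ikzf1 had 174.8, 266.0, 312.1, 280.9 and 292.3 CPM in FOXP3 codes F1, F2, F5, N2 and N3, against 111.9, 162.2 and 212.3 CPM in WT Treg codes E2, G4 and L1 and 151.0, 394.7 and 313.4 CPM in LNGFR codes G1, G2 and G3. The groups overlapped, and G1 stood well below G2 and G3. The log2 fold change was -0.11 ± 0.35 in FOXP3 against LNGFR (95% interval -0.86 to 0.63, edgeR adjusted p = 0.922), -0.81 ± 0.39 in WT Treg against LNGFR (95% interval -1.66 to 0.03, adjusted p = 0.352) and 0.70 ± 0.36 in FOXP3 against WT Treg (adjusted p = 0.357). In FOXP3 against LNGFR the sign turned without F1 (0.01), G2 (0.29) or G3 (0.02), so these data give Ikaros no direction there. The genes most like it across codes were Tle3, a Groucho corepressor (r = 0.938), Elmo2 (0.930), Abhd16a (0.927), Impdh1, an enzyme of guanine nucleotide synthesis (0.925), and Zfand2a (0.925).

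Aiolos is encoded on GRCm38 chromosome 11 from 98464902 to 98546031, on the minus strand. Ikzf3 had 618.6, 476.8, 513.7, 561.6 and 542.8 CPM in FOXP3 codes F1, F2, F5, N2 and N3, against 198.7, 501.0 and 541.2 CPM in WT Treg codes E2, G4 and L1 and 164.1, 398.1 and 445.2 CPM in LNGFR codes G1, G2 and G3. All FOXP3 codes lay within a narrow band above all LNGFR codes, and the lowest values were those of E2 and G1, the shallowest codes of their groups. The log2 fold change was 0.69 ± 0.39 in FOXP3 against LNGFR (95% interval -0.15 to 1.54, edgeR adjusted p = 0.599), 0.30 ± 0.43 in WT Treg against LNGFR (95% interval -0.62 to 1.23, adjusted p = 0.785) and 0.39 ± 0.39 in FOXP3 against WT Treg (adjusted p = 0.662). The estimate in FOXP3 against LNGFR was 0.36 without G1, and that in FOXP3 against WT Treg was 0.06 without E2. In WT Treg against LNGFR it was -0.03 without G1 and 0.64 without E2, so these data give Aiolos no direction there. B cells also express Ikaros and Aiolos, and N3 had the highest B cell marker sum (5262 CPM). Its Ikzf3 level of 543 CPM was the third highest and its Ikzf1 level of 292 CPM the second highest of the 5 FOXP3 codes. All 10 B cell markers were lower in WT Treg than in LNGFR and higher in FOXP3 than in WT Treg by their estimates. Of them, edgeR called 0 in any comparison. Unadjusted p was below 0.05 for 3 in WT Treg against LNGFR, 10 in FOXP3 against WT Treg and 0 in FOXP3 against LNGFR. The shares of all tested genes were 14.8%, 16.5% and 10.3% in that order. DESeq2 called 1, 3 and 0 in the same order, where it called 1.88%, 6.91% and 0.766% of all its genes. The part of B cell RNA in the levels of Ikaros and Aiolos was not tested. The genes most like Ikzf3 were Aifm1 (r = 0.988), Hcls1 (0.986), Bcl10 (0.981), Cat, which encodes catalase (0.980), and Pnrc2 (0.978).

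Within a code, the ratio of Helios to Ikaros removes any scaling of the code as a whole. Ikzf2 divided by Ikzf1 was 1.75, 1.71, 1.01, 1.01 and 0.686 in FOXP3 codes F1, F2, F5, N2 and N3, against 3.38, 4.71 and 3.18 in WT Treg codes E2, G4 and L1 and 0.494, 0.293 and 0.469 in LNGFR codes G1, G2 and G3. No groups overlapped, and the order from WT Treg through FOXP3 to LNGFR held for 1.35% of all tested genes divided by Ikzf1 in the same way. Eos to Ikaros was 0.247 to 0.614 in FOXP3, 1.09 to 1.60 in WT Treg and 0.122 to 0.261 in LNGFR. Here WT Treg stood apart from both other groups, while FOXP3 code N3, at 0.247, lay below LNGFR code G1, at 0.261. The ratio has a background that depends on Ikzf1 itself: 28.1% of all genes had every WT Treg ratio above every LNGFR ratio, 6.53% had every FOXP3 ratio above every LNGFR ratio, and 18% had every FOXP3 ratio below every WT Treg ratio.

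**Figure D4:**
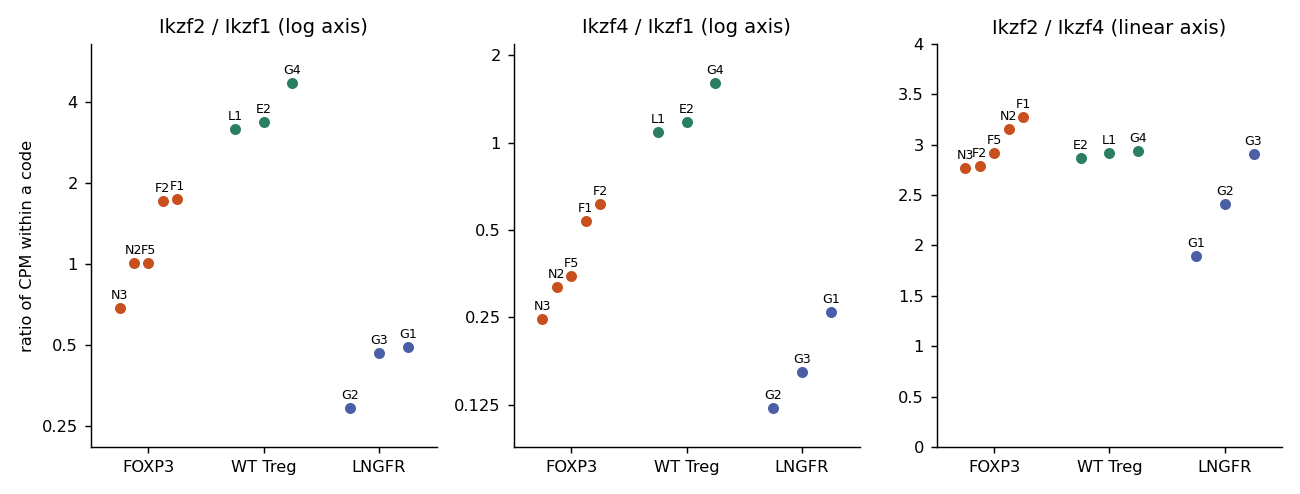
Ratios of CPM within each code for Ikzf2 to Ikzf1 and Ikzf4 to Ikzf1 (log axes) and Ikzf2 to Ikzf4 (linear axis), by group. Points are codes; the Helios to Ikaros ratio separates all 3 groups, and the Helios to Eos ratio lies between 1.90 and 3.28 in every code.

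To compare the members with each other, CPM was divided by the exonic length of each gene, which is 5.78 kb for Ikzf1, 11.6 kb for Ikzf2, 8.75 kb for Ikzf3, 6.00 kb for Ikzf4 and 5.72 kb for Ikzf5. Of the family total in CPM per kb, Aiolos made up 40.9 ± 6.40% in FOXP3, 28.2 ± 4.19% in WT Treg and 35.6 ± 4.14% in LNGFR. Ikaros made up 30.1 ± 5.85% in FOXP3, 17.8 ± 2.96% in WT Treg and 46.5 ± 4.64% in LNGFR. Helios made up 17.4 ± 4.10% in FOXP3, 32.4 ± 2.30% in WT Treg and 9.52 ± 1.80% in LNGFR. Eos made up 11.4 ± 2.97% in FOXP3, 21.6 ± 1.62% in WT Treg and 8.0 ± 2.84% in LNGFR. The most abundant member by this scale thus differed between the group averages: Aiolos in FOXP3, Helios in WT Treg and Ikaros in LNGFR. Within the code, Aiolos (32.6% to 49.3%) lay above Ikaros (21.1% to 35.6%) in all 5 FOXP3 codes. In WT Treg, Helios (29.7% to 33.7%) lay above Aiolos (23.5% to 31.6%) in E2 and G4, and Aiolos above Helios in L1. In LNGFR, Ikaros (42.9% to 51.7%) lay above Aiolos (32.2% to 40.2%) in all codes. The smallest share was that of Pegasus, at most 0.706%, found in G1.

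**Figure D5:**
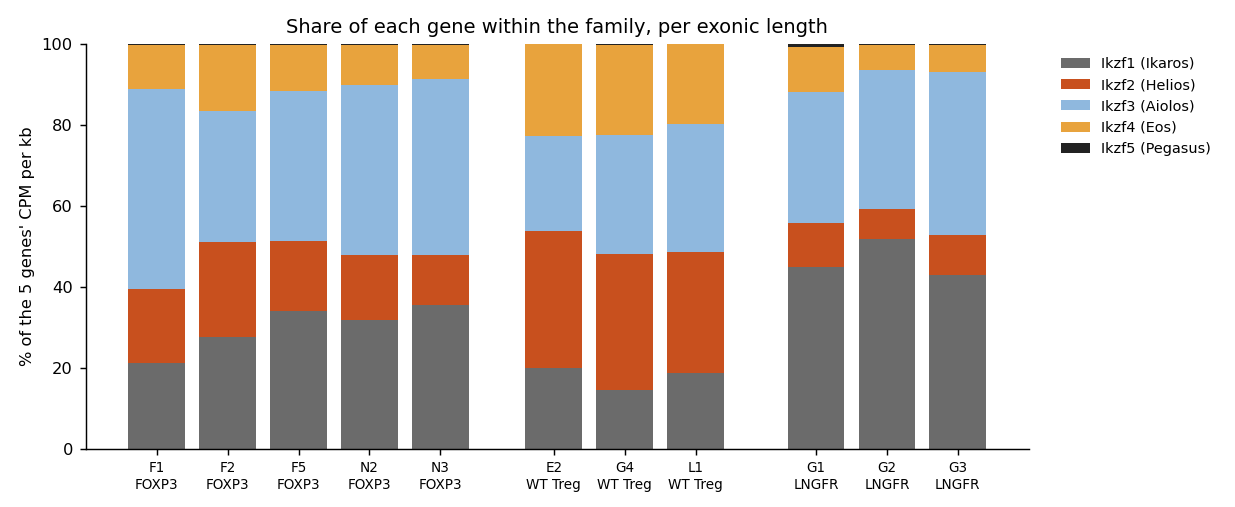
Share of each member in the family total of CPM per exonic kb, in percent, for every code of FOXP3, WT Treg and LNGFR. Each bar is a code and sums to 100; on average Helios and Eos together fill most of the bar in WT Treg and least in LNGFR, where the Ikaros share is highest.

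Pegasus is encoded on GRCm38 chromosome 7 from 131388652 to 131410521, on the minus strand, and drew few reads: by mean CPM, not corrected for length, it exceeded 11.1% of tested genes, against 89.2% for Ikzf4 and 95.7% to 98.2% for Ikzf1, Ikzf2 and Ikzf3. Ikzf5 had 2.11, 1.49, 2.26, 2.08 and 1.198 CPM in FOXP3 codes F1, F2, F5, N2 and N3, against 0, 2.10 and 1.07 CPM in WT Treg codes E2, G4 and L1 and 2.35, 2.08 and 1.92 CPM in LNGFR codes G1, G2 and G3. The groups overlapped in all comparisons. The count of 0 in E2 allows a level of up to 3.69 CPM, above every other code, so the depth of E2 cannot show a difference; this limit covers counting error only, since the reads carry no molecular identifiers. The log2 fold change was -0.20 ± 0.62 in FOXP3 against LNGFR (edgeR adjusted p = 0.92), -0.71 ± 0.73 in WT Treg against LNGFR (adjusted p = 0.684) and 0.51 ± 0.66 in FOXP3 against WT Treg (adjusted p = 0.743). Pstk, which overlaps it, had 22.8 ± 2.29 CPM in FOXP3, 14.4 ± 4.50 CPM in WT Treg and 32.5 ± 19.6 CPM in LNGFR. The genes most like Ikzf5 were Pold2 (r = 0.978), Lsm12 (0.973), Clns1a (0.973), Gpank1 (0.969) and Zfp580 (0.967), a list that rests on 0 to 21 counts of Ikzf5 per code.

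Of 17 genes of the NuRD complex and other corepressors, edgeR called 0 in each comparison, with a median log2 fold change of 0.02 in FOXP3 against LNGFR, 0.19 in WT Treg against LNGFR and 0.07 in FOXP3 against WT Treg, beside -0.02, 0.08 and 0.01 over all tested genes. At an unadjusted p below 0.05 there were 0, 1 and 2 in those comparisons, against 10.3%, 14.8% and 16.5% of all tested genes; DESeq2 called 0, 0 and 1, limma with quality weights 1, 0 and 2, and the fit of 22 libraries 0, 0 and 1. In WT Treg against LNGFR, DESeq2 called 1.88% of all genes, limma 5.63% and the fit of 22 libraries 4.38%. In FOXP3 against LNGFR, they called 0.766%, 6.68% and 3.79% in that order. The shares in FOXP3 against WT Treg were 6.91%, 6.78% and 3.11%. Chd3, which encodes the remodeller Mi-2 alpha, had the smallest p in both comparisons with WT Treg, at 135 ± 9.62 CPM in FOXP3, 239 ± 26.7 CPM in WT Treg and 148 ± 49.3 CPM in LNGFR. The log2 fold change of Chd3 was 0.70 ± 0.30 for WT Treg over LNGFR (edgeR adjusted p = 0.306) and -0.82 ± 0.26 for FOXP3 over WT Treg (adjusted p = 0.129). In FOXP3 against LNGFR, Hdac1, a histone deacetylase, had a log2 fold change of 0.54 ± 0.28 (edgeR adjusted p = 0.55). Without codes E2, G1 and N3, 3 of the 17 rose and 1 fell in FOXP3 against LNGFR, 1 rose in WT Treg against LNGFR, and 1 rose and 1 fell in FOXP3 against WT Treg. In those fits 10.7%, 7.66% and 7.42% of all genes were called, higher or lower.

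Ikaros proteins are phosphorylated by casein kinase 2 and dephosphorylated by protein phosphatase 1, which governs their DNA binding and stability. Of 6 genes of these enzymes, edgeR and the other tools called 0 in each comparison. Unadjusted p was below 0.05 for 0 in FOXP3 against LNGFR, 0 in WT Treg against LNGFR and 1 in FOXP3 against WT Treg. The shares of all tested genes were 10.3%, 14.8% and 16.5% in that order. The median log2 fold changes were 0.10, -0.35 and 0.54 in that order. Ppp1cc, a catalytic subunit of protein phosphatase 1, stood at 18.0 ± 3.46 CPM in FOXP3, 11.1 ± 2.83 CPM in WT Treg and 17.0 ± 4.16 CPM in LNGFR. Every WT Treg code lay below every FOXP3 code (edgeR adjusted p = 0.27 in FOXP3 against WT Treg). The codes of these groups did not overlap, in either direction, for 12.4% of all tested genes. Without codes E2, G1 and N3, 1 of the 6 rose in FOXP3 against LNGFR, where 10.7% of all genes were called.

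Cereblon is the substrate receptor of the ubiquitin ligase through which thalidomide analogues degrade Ikaros and Aiolos in human cells. Of 5 genes of this ligase, edgeR and the other tools called 0 in each comparison. Over all tested genes, 10.3% in FOXP3 against LNGFR, 14.8% in WT Treg against LNGFR and 16.5% in FOXP3 against WT Treg had an unadjusted p below 0.05. Of the 5 there were 0, 1 and 0 in that order. The one was Rbx1, its RING subunit, at 85.4 ± 35.5 CPM in WT Treg against 154 ± 65.9 CPM in LNGFR (log2 fold change -0.83 ± 0.37, edgeR adjusted p = 0.323). Its level was 44.8 CPM in WT Treg code E2 and 110.5 and 101.1 CPM in G4 and L1, against 230.0 CPM in LNGFR code G1 and 114.4 and 117.5 CPM in G2 and G3. Most of the difference between the averages lay in E2 and G1, the shallowest codes of their groups. Crbn, the receptor itself, stood at 137 ± 11.3 CPM in FOXP3, 109 ± 26.8 CPM in WT Treg and 95.7 ± 57.6 CPM in LNGFR.

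Among genes reported in the literature to be controlled by an Ikaros family member in T cells, 10 of 12 could be tested. In WT Treg against LNGFR, 3 fell and 0 rose, against 0.673% and 0.627% of all tested genes, with a median log2 fold change of -0.72 over the 10 and 0.08 over all tested genes. Il10, the suppressive cytokine interleukin 10, stood at 29.7 ± 15.8 CPM in WT Treg against 253 ± 2.47 CPM in LNGFR (log2 fold change -3.02 ± 0.48, edgeR adjusted p = 0.00775). Ifng, interferon gamma, stood at 1.17 ± 1.31 CPM in WT Treg against 26.1 ± 16.5 CPM in LNGFR (log2 fold change -4.07 ± 0.74, edgeR adjusted p = 0.0162). Bcl2, the survival factor, stood at 119 ± 47.1 CPM in WT Treg against 552 ± 148 CPM in LNGFR (log2 fold change -2.20 ± 0.41, edgeR adjusted p = 0.0185). These genes respond to many other factors as well, and no link to the family was tested.

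In FOXP3 against LNGFR, edgeR called 0 of the 10, with 3 at an unadjusted p below 0.05, against 10.3% of all tested genes. The median log2 fold change was -0.38, beside -0.02 over all tested genes. DESeq2, limma with quality weights and the fit of 22 libraries each called 1 lower, DESeq2 among all 12 genes of the list. Those fits called 0.766%, 6.68% and 3.79% of all genes in that order, higher or lower. Bcl2 averaged 200 ± 61.9 CPM in FOXP3 against 552 ± 148 CPM in LNGFR (log2 fold change -1.47 ± 0.34, edgeR adjusted p = 0.0839). Il10 averaged 156 ± 60.2 CPM in FOXP3 against 253 ± 2.47 CPM in LNGFR (log2 fold change -0.70 ± 0.39, edgeR adjusted p = 0.596). In FOXP3 against WT Treg, edgeR called 0 of the 10, with 2 at an unadjusted p below 0.05 and a median of 0.46, beside 0.01 over all tested genes, while DESeq2 called 2 higher and 1 lower and both limma fits called 1 higher. Il10 came closest, with a log2 fold change of 2.33 ± 0.45 (edgeR adjusted p = 0.0522). Without codes E2, G1 and N3, 1 fell in FOXP3 against LNGFR and 4 fell in WT Treg against LNGFR, where 10.7% and 7.66% of all genes were called.

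Of 10 Treg markers, edgeR called 4 higher in WT Treg against LNGFR, namely Foxp3, Gpr83, Itgb8 and Lrrc32, against 0.627% of all tested genes. Another 2 of the 10 had estimates below 0 there and did not pass: Tnfrsf18, at 503 CPM in WT Treg against 666 CPM in LNGFR (log2 fold change -0.40), and Tigit, at 481 CPM in WT Treg against 510 CPM in LNGFR (log2 fold change -0.08). In FOXP3 against WT Treg, edgeR called 3 lower, namely Foxp3, Gpr83 and Itgb8, against 0.123% of all tested genes. The estimates of 7 of the 10 were below 0 in that comparison and those of 3 above. DESeq2 called 4 lower and 1 higher, where it called 6.91% of all its genes. In FOXP3 against LNGFR, edgeR called 0, with 6 at an unadjusted p below 0.05, against 10.3% of all tested genes. The median log2 fold change of the 10 was 1.03. DESeq2 called 5, limma with quality weights 6 and the fit of 22 libraries 5, all higher. Those fits called 0.766%, 6.68% and 3.79% of all genes in that order, higher or lower. Without codes E2, G1 and N3, edgeR called 8 higher in FOXP3 against LNGFR, where 10.7% of all genes were called.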

How the data were processed

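Full-length cDNA libraries (Smart-seq) were made from 1000 sorted cells each with 18 PCR cycles and sequenced as paired reads of 38 bases, per the labels' protocols. The deposited table holds raw counts per gene and library; STAR 2.7.3a, featureCounts, Subread 2.0.0 and mm10/GRCm38 are named in the submitters' processing notes, while the sources used here do not give the annotation, whether counting used strand, or how multiply mapped reads were treated. The reads carry no molecular identifiers, and the limit given for a count of 0 covers counting error only. The intervals of fold changes come from the edgeR fit and include the spread between codes.

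The 2 libraries of each code were added up. Genes with low counts were removed with edgeR's filterByExpr, counts were scaled by TMM, and all 3 groups were fitted together with edgeR 4.0.16 (R 4.3.3), a robust quasi-likelihood test of each pair of groups with Benjamini-Hochberg adjustment over all 15462 genes. A call is an adjusted p below 0.05. Log2 CPM for likeness between genes used a prior count of 2. Gene models came from GENCODE M21. DESeq2 1.42.0 and limma 3.58.1 were alternatives, the last also for all 22 libraries with the code as a random effect (correlation within a code 0.336). DESeq2 was run without filterByExpr and with its own default filter on mean counts. Its shares of all genes are over the 46611 genes with a p-value, some of which may lack an adjusted p. The scripts were tested on simulated data.

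The members and gene lists were chosen with earlier results of these data known. Named were the 5 members, every list member called in a comparison and otherwise those with the smallest p, for each member the 5 genes most like it, Foxp3, and genes that overlap or neighbour a member; Tnfrsf17 and Cd14 were named after their values were seen. No columns of other samples were present, and none was left out.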

Additional observations from a re-analysis of the deposited data

Results flagged for a closer look

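The sum of 10 B cell markers in FOXP3 code N3, 5262 CPM, stood far from the other 4 FOXP3 codes: its gap to the next code was 0.911 of the group's range, beyond the limit of 0.71 for 5 samples. Chance marks about 1 in 20 groups in this way. Beside it, Ikzf2 and Ikzf4 were at their lowest FOXP3 levels in N3 (200.4 and 72.3 CPM), and Ikzf1 and Ikzf3 were within the range of the other FOXP3 codes (292.3 and 542.8 CPM). None of the 5 members had a FOXP3 code beyond that limit. The part of B cell RNA in these levels was not tested.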

How the results depend on the processing

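Over 242 alternative values of the 5 members, 210 kept direction and side of the threshold, 18 gained a call, 10 lost one and 4 changed sign. In FOXP3 against LNGFR, Ikzf2 gained a call with DESeq2 (log2 fold change 1.44), limma with quality weights (1.38), 22 libraries (1.39), or once the 3 weak libraries (1.40) or E2, G1 and N3 (1.37) were left out, and Ikzf4 with DESeq2 (1.15), limma (1.16), 22 libraries (1.04) and without those 3 codes (1.199). In FOXP3 against WT Treg, the same settings other than the 3 weak libraries gave calls for Ikzf2 (-0.98, -1.03, -0.91 and -1.09) and Ikzf4 (-1.01, -1.08, -1.06 and -1.12). In WT Treg against LNGFR, both lost the call when only these 2 groups were fitted (2.43 and 2.17).

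Leaving out 1 code, Ikzf2 ranged over 1.25 to 1.80 in FOXP3 against LNGFR and 2.14 to 2.699 in WT Treg against LNGFR, and Ikzf4 over 1.92 to 2.43 in the second. Ikzf1 ranged over -0.42 to 0.29 in FOXP3 against LNGFR, above 0 without F1 (0.01), G2 (0.29) and G3 (0.02), and Ikzf3 over -0.03 (-0.02995, without G1) to 0.64 in WT Treg against LNGFR.

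The count of called genes (84, 201 and 40 in FOXP3 against LNGFR, WT Treg against LNGFR and FOXP3 against WT Treg) was 329, 1000 and 3615 with no filter, 357, 874 and 3220 with DESeq2, 1033, 870 and 1049 with limma, 472, 545 and 387 with 22 libraries, 184, 58 and 135 with 2 groups fitted, 250, 318 and 66 without the 3 weak libraries, and 1565, 1125 and 1090 with E2, G1 and N3 left out. DESeq2's size factor method in edgeR gave 63 in the third comparison. With 1 code left out the counts ran from 14 (without G2) to 273 (without N3), 37 (without L1) to 299 (without E2), and 4 (without L1) to 1230 (without G4). Higher and lower calls were 26 and 58, 97 and 104, and 21 and 19. With no filter they were 185 and 144, 716 and 284, and 404 and 3211, and with DESeq2 192 and 165, 533 and 341, and 298 and 2922. With no filter the median of all genes moved to 0.14 in the first comparison and 0.21 in the third. The cause was not tested. Ikzf5 had no value in the fit of 22 libraries, whose filter removed it. No paired analysis was possible because the groups share no replicate label. The depth of E2 limits Ikzf5.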
